A study of Mus musculus with 236 samples.

Results

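Mouse embryonic stem cells taken 0.5 days after the removal of LIF and of the inhibitors of MEK and GSK3 were divided by how much RNA of 7 naive pluripotency genes each cell held, and the cells at both ends of that scale were compared across all other genes. Of 201 day 0.5 cells in the expression table, 194 held at least 5000 unique molecular identifiers (UMIs, each standing for 1 captured RNA molecule). Each of the 194 was given a score, the summed UMIs of Zfp42, Esrrb, Nr5a2, Klf5, Nanog, Tfcp2l1 and Tbx3 over all UMIs of the cell, written in CPM, which scales each cell or group to the same UMI total. The 64 cells with the highest scores are called naive-high and the 64 with the lowest scores naive-low, and 66 cells lie between them. The table holds 406 cells of both days, and the labels name 471.

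The line is female and was derived from blastocysts of a C57BL/6J mother and a CAST/EiJ father, so the maternal X chromosome is B6 and the paternal one CAST. Cells were kept in serum medium with LIF and both inhibitors, then moved to serum medium without them on fibronectin, and RNA and chromatin contacts were read from the same cells with HiRES. All naive-high and naive-low cells share that genotype, that medium and that time, and were separated by the score only. Cells of day 2.5 with at least 5000 UMIs had the same treatment for longer and serve here only as a second level beside the others. No label is stated to mark separate cultures, so a day counts as 1 sample. The groups were cut from a measured value, and no p-value was made. Intervals are 95% and cover counting error alone.

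Naive pluripotency is the state of the cells of the early epiblast, before implantation. LIF acts through STAT3, and the inhibitors block differentiation signals through ERK and free β-catenin to relieve repression by TCF7L1, which together hold up a network of transcription factors. When these supports are taken away, the naive factors are lost over the next days, formative and primed genes such as Otx2, Fgf5 and Dnmt3b come on, and in female cells X inactivation begins. Cells leave the naive state at different times, and Zfp42 (Rex1) and Nanog are known to vary between cells of the same culture.

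The score covered a wide range within the day. Scores ran from 1419 to 3091 CPM (median 1612) in naive-high cells, from 979.8 to 1395 CPM (median 1150.2) in the cells between, and from 126.5 to 978 CPM (median 726) in naive-low cells. These values chose the groups and are given as a description. The cells closest to the upper bound held 1419 CPM just inside naive-high and 1395 CPM just outside it, and those closest to the lower bound held 978 CPM just inside naive-low and 979.8 CPM just outside it, so no gap in the scores separates the groups. Naive-low cells were not at the level of day 2.5, where scores ran from 0 to 549.9 CPM with a median of 55.7 CPM. Of the 64 naive-low cells, 13 had a score at or below the highest at day 2.5, and 0 had one at or below the day 2.5 median.

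**Figure D1:**
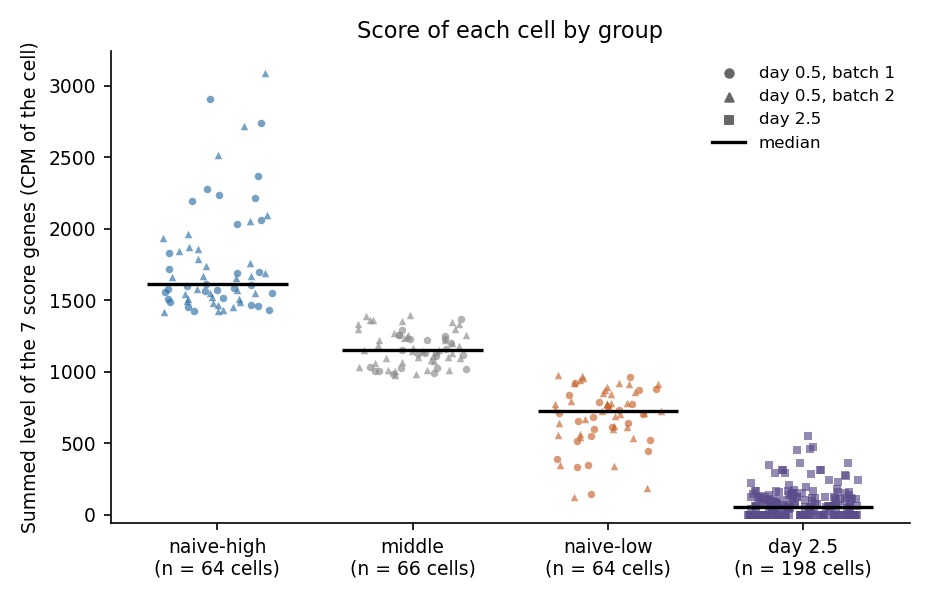
Summed level of the 7 score genes in each cell, in CPM of that cell, by group; each point is 1 cell, its shape gives the batch, and bars are medians. Naive-high cells start at 1419 CPM and naive-low cells end at 978 CPM, and the day 2.5 cells lie at 0 to 549.9 CPM.

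The score rested on few molecules. The median cell held 22 UMIs of the 7 genes in naive-high, 16 in the cells between and 9 in naive-low. The standard deviation of the score over the 194 cells was 514 CPM, and counting alone would give 315 CPM at these depths, which is 37.5% of the variance. A further 46.7% was variation of single genes beyond counting, and 15.8% came from the 7 genes varying together. That last share was 27.3% within batch 1 and 5.49% within batch 2. The batches are the labels that the deposited cell tables give under the header sample, and what they mean was not stated there. Nr5a2, an orphan nuclear receptor that can stand in for Oct4 in reprogramming, varied most against counting, with a variance 4.46 times that of counting. The ratio was 2.58 for Tbx3, a T-box factor, 2.09 for Esrrb, the nuclear receptor downstream of the GSK3 inhibitor, and 1.43 for Tfcp2l1, a factor downstream of LIF, the lowest of the 7.

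The score contains each score gene, so its higher level in naive-high cells follows at least in part from the choice of cells. Zfp42, the zinc-finger gene also called Rex1, stood at 426 CPM in naive-high, 338 CPM in the cells between and 229.6 CPM in naive-low, with 18.97 CPM at day 2.5. Esrrb stood at 468, 358 and 189.99 CPM in the same order, with 11.9 CPM at day 2.5. Nr5a2 had the widest range, 356, 144.5 and 66.4 CPM, and 9.17 CPM at day 2.5. Cells with at least 1 UMI of Nr5a2 were 85.9% of naive-high, 60.6% of the cells between and 34.4% of naive-low cells, against 11.6% at day 2.5. With each cell thinned to 5000 UMIs, these shares were 71.9%, 42.4%, 20.3% and 4.55%. The highest single naive-low cell had 618 CPM of Nr5a2, above the naive-high median of 293 CPM, so the groups overlap for this gene as they do for each of Zfp42, Esrrb and Tbx3.

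To see how far the 7 genes went together, cells were chosen again 7 times, each time on 6 of the genes, and the gene left out was read in the upper and lower group. All 7 ratios were above 1, and their median on the log2 scale was 0.26. Tbx3 had 82.8 CPM in the upper and 38.4 CPM in the lower group, a ratio of 2.16 (interval 1.40 to 3.38). Nr5a2 had 232.4 and 173.7 CPM, a ratio of 1.34 (1.08 to 1.66). The other 5 intervals all contained 1. Zfp42, left out, had 320.1 and 291 CPM, a ratio of 1.10 (0.925 to 1.31), and Esrrb 339 and 321 CPM, a ratio of 1.06 (0.894 to 1.25). Zfp42 and Esrrb gave the most UMIs to the score, and for both the difference was not detectable at this depth. Tfcp2l1 had a ratio of 1.45 (0.964 to 2.15), Nanog 1.21 (0.87 to 1.72) and Klf5, a Krüppel-like factor, 1.19 (0.91 to 1.57).

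The batches differed in these held-out values. Tbx3 had 130.2 and 20.05 CPM in batch 1 and 42.1 and 51.7 CPM in batch 2, and Tfcp2l1 had 103.1 and 41.7 CPM in batch 1 and 48.4 and 58.9 CPM in batch 2. Within batch 2 the log2 difference was below 0 for 4 of the 7 genes, Zfp42, Esrrb, Tfcp2l1 and Tbx3, and the median of the 7 was -0.12, against 0.45 within batch 1. Nr5a2 and Nanog kept their direction in both batches, with log2 differences of 0.59 and 0.37 in batch 1 and 0.19 and 0.25 in batch 2. Klf5 was the 1 gene of the 7 with the larger difference in batch 2, at -0.05 in batch 1 and 0.54 in batch 2.

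**Figure D2:**
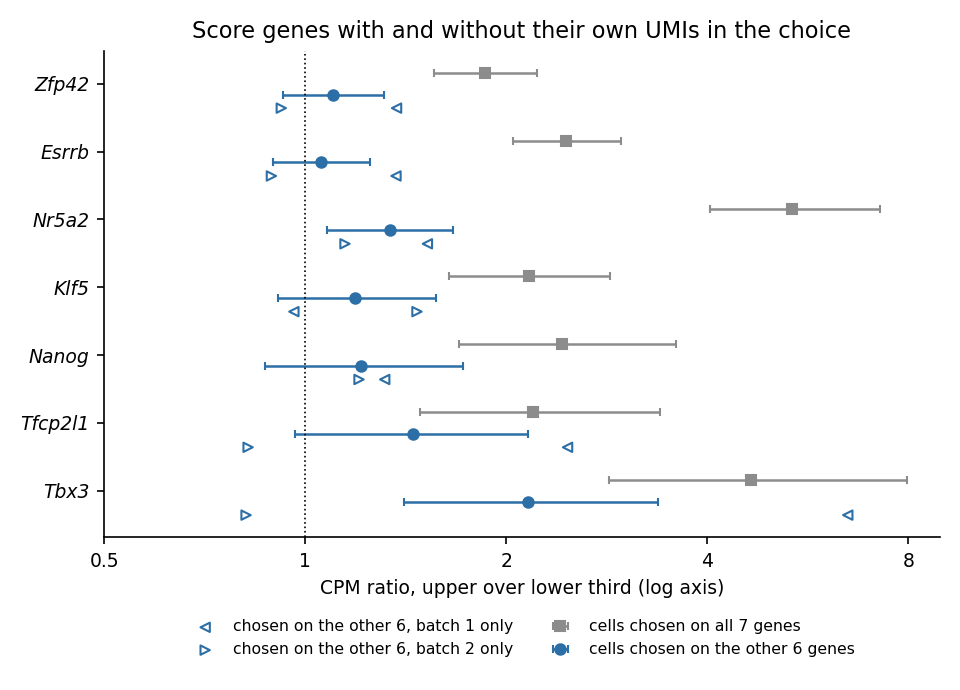
CPM ratio of each score gene, upper over lower group, on a log axis. Grey squares are cells chosen on all 7 genes, blue circles cells chosen on the other 6 genes, both with 95% counting intervals, and open triangles are the held-out ratios within each batch. Held-out ratios run from 1.06 to 2.16, and batch 2 lies below 1 for 4 of the 7 genes.

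The groups were close in depth and differed in cell cycle class. Median UMIs per cell were 13507 in naive-high and 13990 in naive-low, the groups held 867197 and 857930 UMIs in all, and median contacts per cell were 189291 and 186028. Batch 1 gave 30 of 64 naive-high and 24 of 64 naive-low cells, a difference of 9.4 percentage points (-7.6 to 25.6). The cells came from 91 libraries of up to 2 cells, 19 libraries gave a cell to each group, and no cell name stood in more than 1 library. By the authors' classes from the cell tables, mid S phase took 35.9% of naive-high and 54.7% of naive-low cells, a difference of -18.75 points (-34.5 to -1.5). G1 took 28.1% and 18.75%, a difference of 9.4 points (-5.4 to 23.6). Median pseudotime, the authors' ordering of the cells, was 0.752 (0.428 to 1.74) in naive-high and 0.955 (0.572 to 1.81) in naive-low over 62 cells each, and 12.05 at day 2.5. Of the defining markers of other cell types, 3 of 7 for primitive endoderm were at 0 in both groups, 4 of 7 and 3 of 7 for trophectoderm in naive-high and naive-low, 4 of 6 and 3 of 6 for fibroblasts, and 4 of 5 for two-cell-like cells in both. Sox17, Sox7 and Foxa2 of the primitive endoderm, Cdx2, Krt8 and Krt18 of the trophectoderm and Col1a2, Col3a1 and Lum of fibroblasts had no UMI in either group, and the summed defining markers stood at 29.4 and 22.7 CPM for primitive endoderm, 19.6 and 21.6 CPM for trophectoderm, 7.495 and 8.16 CPM for fibroblasts and 1.15 and 1.17 CPM for two-cell-like cells. The full lists stood at 472 and 428 CPM for primitive endoderm (Lamc1 at 319 and 282 CPM), 168.9 and 98.5 CPM for trophectoderm (Tead4 at 149.3 and 76.9 CPM) and 499 and 425 CPM for fibroblasts (Fn1 at 491 and 416 CPM). The part of these genes in the results was not tested.

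Across the genome the groups differed little. Of 39300 genes in the table, 3844 outside the score had at least 100 UMIs over both groups. Counted as higher or lower were genes whose CPM ratio was at least 1.5 or at most its inverse and whose direction was the same in both batches. By that rule 121 genes (3.15%) were higher and 97 genes (2.52%) lower in naive-high cells, and a ratio of at least 2, or at most 0.5, was reached by 11 genes each way. The median log2 difference of all genes compared was 0.01. All log2 values here are log2((CPM naive-high + 5)/(CPM naive-low + 5)), which draws genes of low level toward 0. Both batches enter the summed ratio, so the condition on direction follows from it in large part.

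The batches shared little of the pattern. Over the 3844 genes, 51.2% had the same direction in batch 1 and batch 2, and the correlation of their log2 differences across genes was r = 0.04 (Spearman 0.04), or 0.08 over the 692 genes with at least 500 UMIs. Genes are not independent, and no cell is in both batches, though the choice of cells by score is the same. Genes chosen in a single batch were then read in the other. Genes past 1.5-fold higher within batch 1, at a median of 0.74, had a median of 0.04 in batch 2, and 81 of them (55.9%) were above 0 there, against 51.2% of all 2142 genes compared in batch 1. The 65 genes higher within batch 2 had a median of 0.14 in batch 1 and were above 0 there in 69.2%, against 51.5% of 2238 genes. Of the genes lower within batch 1, 45 (40.2%) were above 0 in batch 2, and of the 83 lower within batch 2, 38.6% were above 0 in batch 1. Each of these readings took genes with at least 100 UMIs within the batch that chose them. Among genes that reached this in both batches, 7 were past 1.5-fold higher in both, Zc3hav1, Coil, Fut9, Ric8b, Slc7a1, Mrps27 and Gm11508. Past it on the lower side in both were 6, Dpp6, Foxo1, Hdac9, Cyp7b1, Mapk8 and Unk. All were named after their values were seen. They stand among the 65 genes higher and 83 lower within batch 2, out of 2238 compared there. The number of genes that reached the minimum in both batches is not given here, so these counts have no background share beside them. Whether they exceed what batches with unrelated differences would share was not tested, and they are a description.

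**Figure D3:**
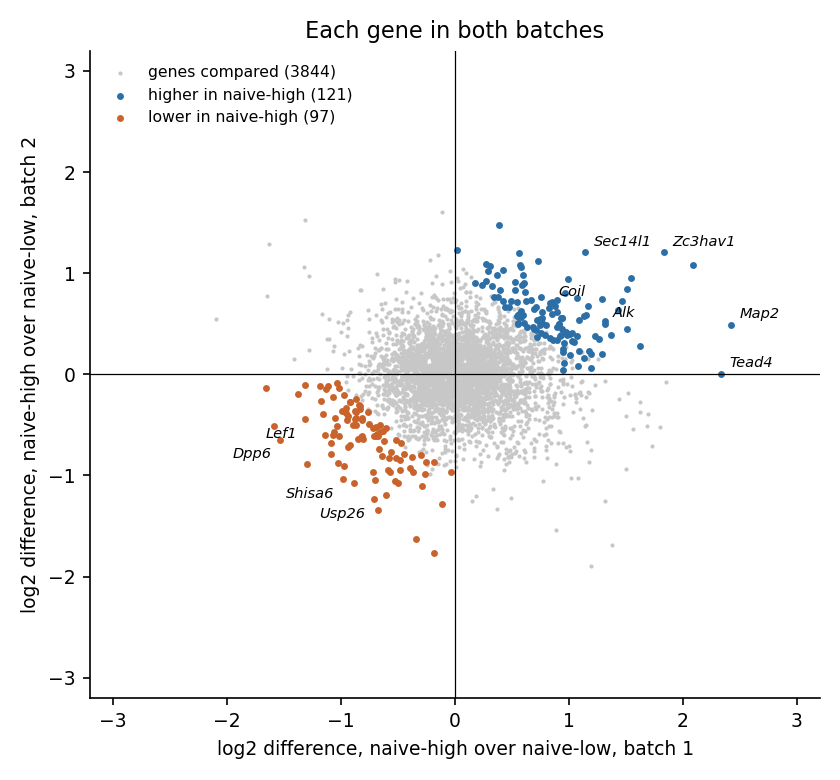
Log2 difference of each of the 3844 genes, naive-high over naive-low, in batch 1 (horizontal) and batch 2 (vertical). Genes counted as higher (121) or lower (97) lie in the upper right and lower left by the rule itself, and the remaining genes form a round cloud, with r = 0.04 over all genes.

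The gene set apart most clearly on the higher side was Zc3hav1, which encodes the zinc-finger antiviral protein that binds CpG-rich RNA. It stood at 255 CPM (222.4 to 291) in naive-high, 168.6 CPM in the cells between, 90.9 CPM (71.9 to 113.5) in naive-low and 30.0 CPM at day 2.5. The ratio was 2.80 (2.16 to 3.68), with log2 differences of 1.84 in batch 1 and 1.21 in batch 2. Single naive-high cells ran from 0 to 1146 CPM with a median of 146.9 CPM and naive-low cells from 0 to 420.0 CPM with a median of 66.8 CPM, so the groups overlap and the highest cells are naive-high. A UMI of Zc3hav1 was seen in 73.4% of naive-high and 57.8% of naive-low cells, or 53.1% and 29.7% after thinning to 5000 UMIs, against 13.1% of thinned day 2.5 cells. No single cell gave more than 5.35% of its UMIs.

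The gene with the most UMIs among those named on the lower side was Lef1, a TCF/LEF factor that binds β-catenin and turns on Wnt targets, and a member of the formative and primed list as well. It stood at 1041 CPM (974 to 1111) in naive-high, 1317 CPM in the cells between and 1897 CPM (1807 to 1992) in naive-low, a ratio of 0.549 (0.505 to 0.596). Single naive-high cells ran from 0 to 3878 CPM (median 711) and naive-low cells from 0 to 6442 CPM (median 1514). The log2 difference was -1.32 in batch 1 and -0.44 in batch 2. At day 2.5 Lef1 stood at 717 CPM, below all 3 groups of day 0.5, so its order within day 0.5 is not the order between the days.

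Upstream sequence is shown for the score gene with the score's best-known name, Zfp42, and for these 2 genes. It is the 250 bases before the first listed start of each gene in RefSeq (GRCm38.p6), 5′ to 3′ on the gene's strand. For Zc3hav1 the RefSeq gene runs on to chr6:38355352, past that start, so the stretch shown lies inside the annotated gene. Capitals mark matches to 3 motifs searched on both strands in the window from 250 bases before to 50 bases after each start: AAGGTCA, bound by ESRRB and NR5A2, the POU octamer ATTTGCAT and the KLF box GGGTGTGG, none of which overlap here.
Zfp42, chr8:43307010-43307259, minus strand: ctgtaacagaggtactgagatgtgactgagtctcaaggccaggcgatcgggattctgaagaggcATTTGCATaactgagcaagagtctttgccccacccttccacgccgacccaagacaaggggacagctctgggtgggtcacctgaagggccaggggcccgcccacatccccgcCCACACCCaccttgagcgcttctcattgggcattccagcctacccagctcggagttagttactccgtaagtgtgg
Zc3hav1, chr6:38354604-38354853, minus strand: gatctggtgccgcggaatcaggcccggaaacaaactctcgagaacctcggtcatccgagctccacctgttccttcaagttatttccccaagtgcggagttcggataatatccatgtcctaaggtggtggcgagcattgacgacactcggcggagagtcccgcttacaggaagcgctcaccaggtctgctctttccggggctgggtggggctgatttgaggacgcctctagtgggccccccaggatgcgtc
Lef1, chr3:131110047-131110296, plus strand: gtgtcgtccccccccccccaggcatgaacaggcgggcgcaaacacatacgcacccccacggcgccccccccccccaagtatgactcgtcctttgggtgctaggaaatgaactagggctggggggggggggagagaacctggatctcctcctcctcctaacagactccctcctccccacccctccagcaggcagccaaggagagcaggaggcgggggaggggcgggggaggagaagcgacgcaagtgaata
Zfp42 held an octamer and a KLF box (shown as its reverse complement), and the windows of Zc3hav1 and Lef1 held none of the 3 motifs. Promoters with AAGGTCA were 1.50% of 133 promoters of higher genes, 0.877% of those of lower genes and 2.80% of 4007 of all genes compared. The octamer was in 2.26%, 0.877% and 1.12%, and the KLF box in 4.51%, 1.75% and 2.80%. RefSeq promoters were matched for 92 of the 121 higher and 81 of the 97 lower genes, and these shares rest on 1 to 6 promoters among higher or lower genes.

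The other 11 genes named on the higher side, chosen by the counting interval of their ratio, lay between 1.70-fold and 2.55-fold. Map2, a microtubule-associated protein of neurons, stood at 115.9 CPM in naive-high and 45.5 CPM in naive-low, and batch 1 carried most of it (log2 2.42, against 0.49 in batch 2). Sec14l1, of the SEC14 family of lipid-binding proteins, stood at 94.6 and 39.05 CPM, a ratio of 2.42 (1.58 to 3.67), and was alike in both batches at 1.14 and 1.21. Auh, an enzyme of leucine breakdown that also binds AU-rich RNA, had a ratio of 2.42 (1.55 to 3.87). D16Ertd472e had 2.12 (1.56 to 2.91), and Ric8b, a chaperone of G protein α subunits, had 2.02 (1.52 to 2.65) with 0.99 and 0.94 on the log2 scale in the batches. Mtmr7, a phosphoinositide phosphatase, had 2.01 (1.48 to 2.75).

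Among the more abundant of these, Fut9, the fucosyltransferase that makes the SSEA-1 surface antigen of mouse stem cells, stood at 509.7 CPM in naive-high, 364 CPM in the cells between and 288 CPM in naive-low, a ratio of 1.77 (1.51 to 2.08). Coil, the scaffold protein of Cajal bodies, stood at 422, 341 and 242 CPM, a ratio of 1.74 (1.46 to 2.07). Alk, a receptor tyrosine kinase, stood at 282, 219.6 and 149.2 CPM, a ratio of 1.89 (1.52 to 2.35). Alk was patchy: a UMI was found in 48.4% of naive-high and of naive-low cells, in 42.2% and 32.8% after thinning to 5000 UMIs, and its level reached 2041 CPM in 1 naive-high cell. Tead4, a TEAD factor known from the trophectoderm, had a ratio of 1.94 (1.44 to 2.66) with a log2 difference of 2.33 in batch 1 and 0.01 in batch 2. Gm10801, a predicted gene that RefSeq did not place, had a ratio of 1.70 (1.43 to 2.03), and 1 cell gave 19.02% of its UMIs.

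Below Lef1, the named genes on the lower side lay between 0.457 and 0.599. Dpp6, an accessory subunit of voltage-gated potassium channels, stood at 140.1 CPM in naive-high, 237.6 CPM in the cells between, 307 CPM in naive-low and 818 CPM at day 2.5, and its ratio was 0.457 (0.367 to 0.571). Shisa6, an accessory protein of AMPA receptors, stood at 71.5, 160.97, 153.9 and 599 CPM in the same order. Sdk1, a cell adhesion protein, had a ratio of 0.474 (0.338 to 0.657), and Lpp, a LIM protein of focal adhesions, 0.556 (0.456 to 0.675), with 189.7, 242, 341 and 1007 CPM in that order. Hdac9, a class IIa histone deacetylase, had 0.537 (0.423 to 0.68). All of these were higher at day 2.5 than in the middle cells of day 0.5, by 2.19-fold to 4.16-fold.

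The remaining named genes had no common direction with time. Rapgef4, an exchange factor for Rap that cAMP activates, stood at 84.8 CPM in naive-high, 171.9 CPM in naive-low and 7.43 CPM at day 2.5, a ratio of 0.493 (0.369 to 0.658). Usp26, an X-linked deubiquitinase, had 0.464 (0.33 to 0.639) and stood at 43.6 CPM at day 2.5, and Golph3l, a Golgi protein, had 0.474 (0.326 to 0.68). These 3 were lower at day 2.5 than in the middle cells by more than 1.5-fold, and Foxo1, Cyp7b1 and Otx2os1 lay within 1.5-fold of the middle cells. Foxo1, a forkhead factor that insulin signalling restrains, stood at 242 and 404 CPM, a ratio of 0.599 (0.502 to 0.713), with -0.81 and -0.64 on the log2 scale in the batches. Cyp7b1, an oxysterol hydroxylase, had 0.574 (0.455 to 0.712). Otx2os1, which runs antisense to Otx2, stood at 88.2 CPM in naive-high, 187.8 CPM in the cells between and 161.7 CPM in naive-low, a ratio of 0.545 (0.403 to 0.721). No source used here says whether the counting used strand, and without it reads of Otx2os1 and Otx2 cannot be told apart where they overlap.

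**Figure D4:**
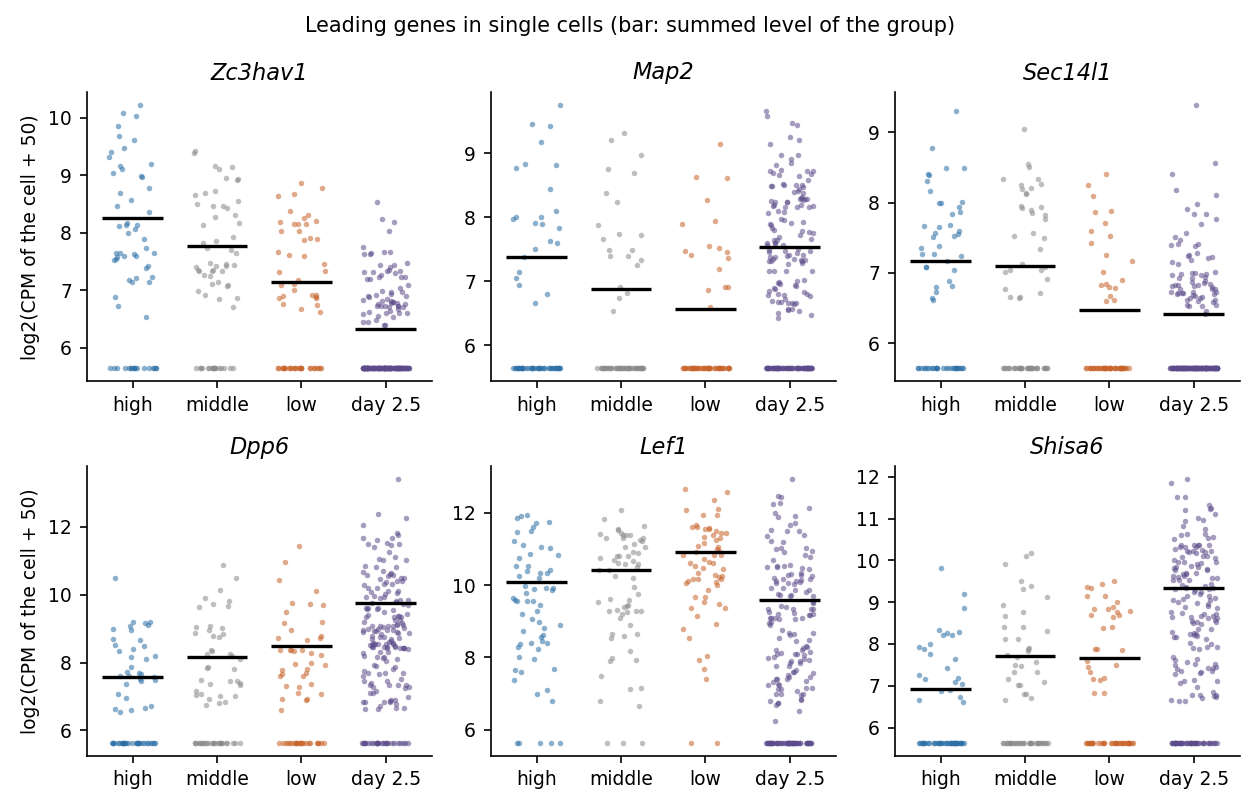
Level of the leading 3 genes of each direction in single cells, as log2(CPM of the cell + 50), by group; points are cells, those at the bottom have no UMI, and bars are the summed level of the group on the same scale. Zc3hav1 steps down from 255 to 90.9 CPM from naive-high to naive-low, Lef1 steps up from 1041 to 1897 CPM, and single cells of the groups overlap for every gene shown.

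The level in the cells between the groups lay between naive-high and naive-low for 93 of the 121 higher genes (76.9%) and 78 of the 97 lower genes (80.4%), beside 36.1% of all 3844 genes compared. The called genes were chosen for a wide gap between the groups, which a middle level falls into more often by that choice, so these shares are a description. Of the named genes, Gm10801, Shisa6 and Otx2os1 had a middle level outside the gap. Day 2.5 was set beside these middle cells, so that no cell of either group entered. Of the 12 named higher genes, 6 were lower at day 2.5 by at least 1.5-fold and 2 were higher, Map2 and Mtmr7. Of the 12 named lower genes, 5 were higher and 4 were lower. Over all 121 higher genes, 40.5% were lower and 18.2% higher at day 2.5 by that size. The shares were 23.7% and 29.9% over the 97 lower genes, and 23.8% and 12.8% over all 3844 compared. The median log2 difference of day 2.5 over the middle cells was -0.21 (-0.55 to -0.07), 0.03 (-0.16 to 0.30) and -0.10 (-0.12 to -0.08) in the same order. Genes past 1.5-fold also had fewer UMIs, a median of 139.5 for higher and 165 for lower genes against 230.5 for all compared, and the part of depth in these shares was not tested. Their median lengths were 69.8 kb (55.1 to 89.3) for higher, 75.4 kb (52.4 to 100.3) for lower and 61.1 kb (58.8 to 63.4) for all compared.

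Naive genes outside the score leaned to the higher side. Of 24 on the list, 8 had at least 100 UMIs, and 6 of them were above 0. Their log2 differences ran from -0.13 to 0.70, and with so few genes the interval of their median spans that whole range, 0 included. The median was 0.31, beside 0.01 for all genes compared, with 0.14 in batch 1 and 0.37 in batch 2. Counted as higher was 1 and as lower 0, beside 3.15% and 2.52% of all genes compared. The list's summed UMIs were 2874 CPM in naive-high and 2490 CPM in naive-low, a ratio of 1.15 (1.09 to 1.22). Fbxo15, an F-box gene that Oct4 and Sox2 drive, was the one counted as higher, at 127.4 and 76.3 CPM, a ratio of 1.67 (1.204 to 2.27). After thinning its UMIs were in 28.1% of naive-high and 35.9% of naive-low cells, so that the share of cells did not follow the summed level. Below 1.5-fold, Pecam1, an adhesion molecule, had a ratio of 1.34 (1.08 to 1.66), Tet2, which oxidises methylated cytosine, 1.33 (1.15 to 1.54), Dppa4 1.26 (0.932 to 1.71), Manba, a lysosomal mannosidase, 1.24 (1.07 to 1.43) and Zfp57, which guards imprinted methylation, 1.17 (0.954 to 1.45). Morc1 at 0.915 (0.814 to 1.03) and Dnmt3l at 0.927 (0.728 to 1.18) lay on the other side of 1.

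Formative and primed genes lay on both sides of 0, and their summed level turned on Lef1. The summed ratio of the list was 0.862 (0.825 to 0.9), and 1.05 (0.993 to 1.10) over the 20 genes without Lef1. Of 21 on the list, 11 were compared and 4 were above 0, at a median of -0.08, with 0.07 in batch 1 and -0.10 in batch 2. Counted as higher was 1 and as lower 1 (Lef1), beside 3.15% and 2.52% of all genes compared. Otx2, the factor that drives exit to the formative state, stood at 73.8 CPM in naive-high and 97.9 CPM in naive-low, a ratio of 0.754 (0.536 to 1.06), with 0.01 in batch 1 and -0.80 in batch 2. Dnmt3b, a de novo methyltransferase of primed cells, had 552 and 563 CPM, a ratio of 0.981 (0.863 to 1.12), although it stood at 1345 CPM at day 2.5. Dnmt3a had 0.87 (0.718 to 1.06), Lin28b, which blocks let-7, 0.816 (0.658 to 1.01), Foxp1 0.916 (0.728 to 1.15) and Pim2 0.947 (0.723 to 1.24). Etv5, an ETS factor that ERK induces, lay above 1 at 1.33 (1.13 to 1.57), with 0.46 and 0.39 in the batches, and Etv4 at 1.04 (0.809 to 1.32). Tcf7l1, the repressor of naive genes, had 1.14 (1.04 to 1.25), and Cdh2, N-cadherin, counted as higher, had 101.5 and 58.3 CPM, a ratio of 1.74 (1.22 to 2.52). Members of the list did not all rise by day 2.5. Cdh2 was below its day 0.5 levels at day 2.5, at 30.0 CPM, and so was Etv4, at 41.4 CPM. Etv5 stood at 331 CPM and Tcf7l1 at 1231 CPM at day 2.5, close to 321 and 1228 CPM in the middle cells. Otx2, Lin28b, Foxp1 and Pim2 were higher at day 2.5 than in the middle cells, like Dnmt3b, and Dnmt3a and Lef1 were lower.

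The general pluripotency list, meant for genes that both states share, had a median of -0.08 with none of 11 past 1.5-fold. Rif1, a telomere and replication factor, had 1528 and 1511 CPM, a ratio of 1.01 (0.936 to 1.09), Nr6a1 1.10 (0.949 to 1.27) and Cdh1, E-cadherin, 0.787 (0.665 to 0.927), the last with -0.93 in batch 1 and 0.23 in batch 2. The LIF pathway had 0 of 6 genes past 1.5-fold (median 0.08) and the ERK targets 0 of 5 (median -0.03), beside 3.15% higher and 2.52% lower of all genes compared, so a count of 0 is near the background. Pias1, an inhibitor of STAT signalling, had 231.8 and 230.8 CPM, a ratio of 1.00 (0.821 to 1.23). Lifr, the LIF receptor, had 1.31 (0.951 to 1.799), and Ptpn2, a phosphatase of that pathway, 0.737 (0.594 to 0.926), at -0.31 and -0.54 in the batches. Spred2, which dampens ERK signalling, had 0.923 (0.828 to 1.03). The Wnt list had a median of 0.10 with 1 of 6 lower, Lef1, while Tcf7l1 and Znrf3 at 1.08 (0.961 to 1.21) lay on the other side of 1.

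Cell cycle lists lay to either side of 0. The share of cells in mid S phase differed between the groups, at 35.9% against 54.7%. The authors' G2M score had medians of -0.03 (-0.05 to 0.02) and 0.03 (0.002 to 0.08), with intervals that overlap. Their S score was alike, at medians of 0.07 and 0.08. The part of the cell cycle in the list values was not tested. Among G2 and M genes 2 of 15 were above 0, at a median of -0.23. Counted as lower was 1 and as higher 0, beside 2.52% and 3.15% of all genes compared. Top2a, which untangles replicated DNA, had 464 and 546 CPM, a ratio of 0.85 (0.742 to 0.973), while Ect2, needed for cytokinesis, had 1.03 (0.884 to 1.19) and the condensin subunit Smc4 1.03 (0.842 to 1.26). Hmmr, a spindle protein and the one counted as lower, had 0.627 (0.451 to 0.866). For S phase genes the median was 0.34, 8 of 10 were above 0 and none was past 1.5-fold, among them the replication helicase subunit Mcm6 at 1.27 (1.01 to 1.61). Pola1, the catalytic subunit of the primase polymerase and the S phase gene with the most UMIs, went the other way at 0.902 (0.846 to 0.962), and Hells, a chromatin remodeller, had 0.96 (0.869 to 1.06). The summed level of the S phase list stood at 4491 and 4530 CPM.

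The p53 list turned on 1 cell. Its median was -0.36, at 0.04 in batch 1 and -0.43 in batch 2. Counted as lower were 2 of 6 genes and as higher 0, beside 2.52% and 3.15% of all genes compared. Mdm2, the ubiquitin ligase that degrades p53, stood at 79.6 and 143.95 CPM, a ratio of 0.553 (0.404 to 0.745), but 1 naive-low cell of 9493 UMIs gave 42 UMIs of Mdm2, which is 21.8% of all in both groups. Without that cell Mdm2 stood at 79.6 and 96.1 CPM, a ratio of 0.828 (0.589 to 1.15), no longer past 1.5-fold, and the median of the list was -0.01. Sesn1, a stress-induced inhibitor of mTORC1, had 0.651 (0.501 to 0.843), at -1.19 and -0.11 in the batches. Trp53 itself was at 155.7 and 157.4 CPM, and Zmat3, a p53 target that binds RNA, had a ratio of 1.16 (0.879 to 1.54).

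Of 6 G1 regulators, 1 was higher and 0 lower, beside 3.15% and 2.52% of all genes compared. The list median was -0.02, with 2 of the 6 above 0. The higher one was Cdk6, a G1 kinase, at 376.5 and 223.8 CPM, a ratio of 1.68 (1.40 to 2.02), with 0.53 and 0.92 in the batches. Ccnd3 had 0.987 (0.767 to 1.28) and E2f3 1.11 (0.948 to 1.28). Of 11 cytoskeleton and adhesion genes, 2 were higher and 0 lower, beside 3.15% and 2.52% of all genes compared, and the list median was 0.00. The higher ones were Itgb1, the integrin β subunit, at 1.67 (1.24 to 2.28), and Cnn3, a calponin, at 1.51 (1.15 to 1.97). The 3 most abundant members had ratios below 1, Actn4, an actin cross-linker, at 0.839 (0.731 to 0.962), Myh9, a nonmuscle myosin, at 0.988 (0.836 to 1.17) and Vcl, vinculin, at 0.716 (0.574 to 0.889), the last with -0.90 in batch 1 and -0.02 in batch 2. Mdm2, Hmmr, Itgb1 and Cnn3 are outside the rule for named genes and are given because they were past 1.5-fold, chosen after their values were seen.

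Of the Polycomb list, 0 of 10 were past 1.5-fold, beside 3.15% higher and 2.52% lower of all genes compared. The median was -0.01, and the summed ratio of the list was 0.923 (0.892 to 0.954). Jarid2, which recruits PRC2, had 3928 and 4384 CPM, a ratio of 0.896 (0.855 to 0.938), but -0.39 in batch 1 and 0.06 in batch 2, and Kdm2b, which brings a PRC1 complex to CpG islands, had 0.987 (0.907 to 1.07), at -0.45 and 0.40. Suz12, a core subunit of PRC2, stood at 669 and 828 CPM, a ratio of 0.808 (0.723 to 0.903), on the lower side in both batches at -0.23 and -0.43. Of the methylation genes 0 of 8 were past it (median 0.06), with Tet1 at 1.09 (1.01 to 1.17), and of cohesin and CTCF genes 0 of 13 (median -0.01), with the cohesin subunit Stag1 at 1.03 (0.932 to 1.14), its regulator Pds5a at 0.955 (0.848 to 1.07) and the loader Nipbl at 0.932 (0.818 to 1.06).

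Heat shock genes had 0 of 5 past 1.5-fold (median -0.03), beside 3.15% higher and 2.52% lower of all genes compared. The chaperones Hsph1 and Hsp90aa1 had 0.88 (0.72 to 1.06) and 0.98 (0.804 to 1.19), and Hsp90ab1 1.32 (1.08 to 1.62). Of glycolysis genes 0 of 10 were past it (median -0.10), and members lay on either side of 1. Gpi1, the phosphoglucose isomerase, had 0.688 (0.568 to 0.835), at -0.40 and -0.63 in the batches, and Pfkp, a phosphofructokinase, 1.24 (1.07 to 1.44), at 0.29 and 0.35. Slc2a3, a glucose transporter, had 0.936 (0.807 to 1.09), with 0.48 in batch 1 and -0.63 in batch 2. Genes that an earlier analysis of these cells found lower at day 2.5 had 0 of 11 past 1.5-fold and a median of 0.04. 4930519F16Rik had 5871 CPM in naive-high and 5553 CPM in naive-low, against 132.2 CPM at day 2.5, Bnc2 a ratio of 1.03 (0.956 to 1.11), and Megf11 0.806 (0.715 to 0.909) with -0.98 in batch 1 and 0.20 in batch 2. Genes found higher at day 2.5 in that analysis were too low to compare singly, at a summed 142.4 and 201.1 CPM against 6756 CPM at day 2.5.

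The shorter lists held few genes that could be compared. Germline genes had a median of -0.37 with 0 of 3 past 1.5-fold, beside 3.15% higher and 2.52% lower of all genes compared. Hormad1, a protein of meiotic chromosome axes, had 0.721 (0.597 to 0.868), Stk31 0.858 (0.617 to 1.19) and Sycp1, of the synaptonemal complex, 0.764 (0.538 to 1.08). Genes of the X-inactivation centre had a median of -0.18 with 0 of 4 past it, with Chic1 at 0.795 (0.661 to 0.952) and Rlim, the activator of Xist, at 0.909 (0.691 to 1.19). Primitive endoderm genes had 0 of 2 past it (median -0.07), Lamc1 at 1.13 (0.946 to 1.35) and Sparc at 0.791 (0.521 to 1.18), and the fibroblast list 0 of 1, Fn1, fibronectin, at 1.18 (1.02 to 1.36). The trophectoderm and neuroectoderm lists had a single compared gene each, Tead4 and Map2. Primitive streak, two-cell-like, mitochondrial and immediate early genes had none.

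**Figure D5:**
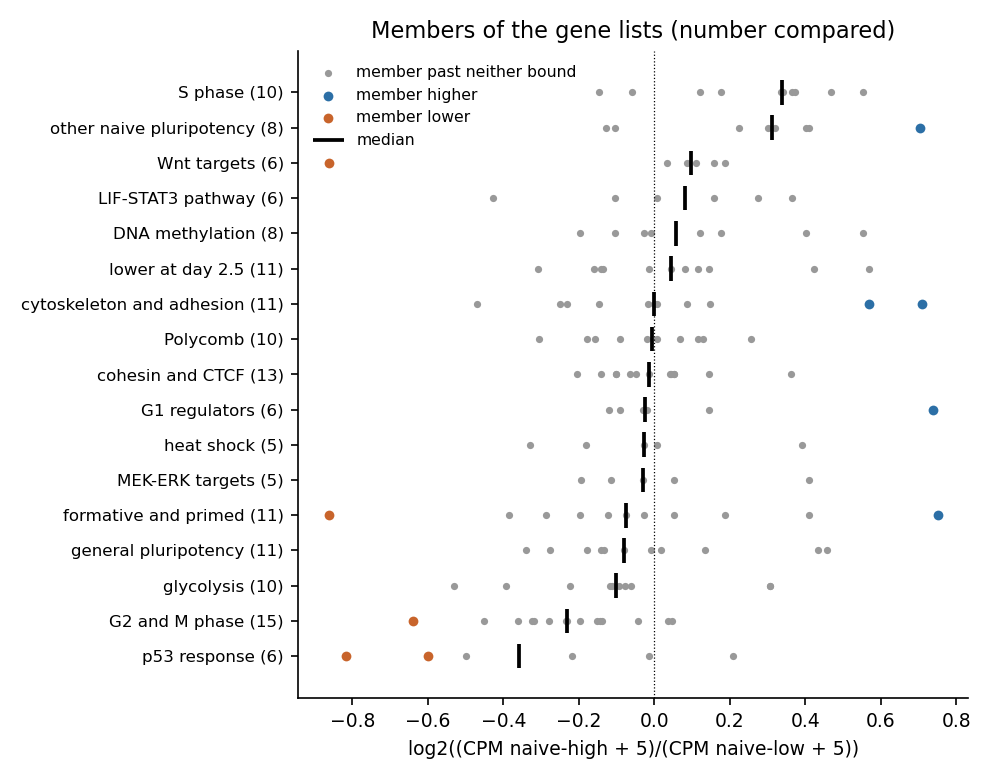
Log2 difference of each compared member of the lists with at least 5 such members; each point is a gene, coloured where it was counted as higher or lower, and bars are list medians. Medians run from -0.36 (p53 response, -0.01 without 1 cell) to 0.34 (S phase), and naive genes outside the score lie at 0.31.

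The chrX share of summed UMIs was slightly higher in naive-high cells, with counting intervals that did not overlap, and the balance of the alleles was close. The share of the median cell was alike, at 5.54% in naive-high (cells from 4.10% to 6.82%) and 5.53% in naive-low (cells from 3.26% to 6.37%). Counting intervals do not cover that spread between cells. Genes on chrX gave 5.54% (5.49 to 5.59) of nuclear UMIs in naive-high and 5.41% (5.36 to 5.46) in naive-low cells, against 4.61% at day 2.5. Xist, the RNA that coats and silences the inactive X, stood at 34.6 CPM (23.3 to 49.4) and 40.8 CPM (28.4 to 56.7), against 1490 CPM at day 2.5, and the most UMIs in 1 cell were 4.5 and 5. Cells with an Xist UMI were 26.6% and 31.2% of the groups, and 9.38% and 15.6% after thinning to 5000 UMIs. Tsix, its antisense partner, stood at 519.7 CPM (473 to 570.4) and 488 CPM (442 to 536), and without strand its reads and those of Xist cannot be told apart where they overlap. With Xist and Tsix left out, B6 took 50.3% (49.7 to 50.96) of the allelic chrX UMIs over 62 naive-high and 49.8% (49.2 to 50.5) over 62 naive-low cells. It took 38.1% at day 2.5.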

How the data were processed

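RNA and chromatin contacts were measured in the same single cells with HiRES. The deposited expression table gives expected counts of UMIs for each gene in each cell, as its values show; 11.1% of values above 0 are fractions, which were summed as deposited. Deposited cell tables hold, by the authors' own work, counts of contact pairs and of UMIs, the fraction of contacts between chromosomes, a score for S and for G2M phase, and a pseudotime. Per the submitters' processing notes, reads were placed on GRCm38; no source used here names the aligner, the counter or the use of strand. Left unused were 1101 expression columns and 893 allelic columns whose cells no label names.

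The members, the 29 gene lists and the comparisons were chosen with earlier results of these data known. Each group was pooled into a single UMI sum per gene, scaled to CPM, with a pseudocount of 5 CPM on the log2 scale, and genes needed 100 UMIs over both groups. Levels have exact Poisson intervals, ratios exact conditional ones, shares Clopper-Pearson ones, differences of shares Newcombe ones and medians intervals from order statistics. Named were the 12 genes of each direction whose ratio interval lay farthest from 1, with the same direction in both batches and at most 20% of UMIs from 1 cell, and besides them the score genes, the members of the naive and formative lists, and the 3 compared members with most UMIs of each other list, where it had as many; genes outside this rule are marked. Python 3.11.15 with numpy 2.4.6, pandas 2.3.3 and scipy 1.17.1 was used. Functions were tested on simulated data. Alternatives covered scaling, pseudocount, minimum counts, weight of cells, thinning, size of the groups, batch, cell cycle class, cell letter and the genes of the score.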

Additional observations from a re-analysis of the deposited data

How the results depend on the processing

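Over the 22 alternatives, 23 of the 24 named genes kept their direction. They had been chosen from these cells for a wide ratio and the same direction in both batches. The kept direction follows in large part from that choice and is a description. Usp26 lay between -1.22 and 0.10 when 1 gene was left out of the score, and was above 0 without Esrrb. The counts of higher and lower genes followed the minimum, and so did the number compared. The counts were 270 and 266 of 5907 with 50 UMIs, and 30 and 33 of 2184 with 200 UMIs. The fewer UMIs after thinning to 5000 gave 41 and 27 of 1631, against 121 and 97 of 3844 in the main setting. Within batch 2 alone, where no second batch checks the direction, 65 of 2238 were higher and 83 lower. Leaving 1 gene out of the score gave 110 to 130 higher genes, but only 50 to 93 of the 121 and 36 to 71 of the 97 remained. Across all 22 alternatives, 16 to 121 of the higher and 9 to 97 of the lower genes remained. The fewest remained after thinning, where 1631 genes were compared. With 97 cells in each group, 37 and 22 remained. Within batch 1 alone 24 and 22 remained, and within batch 2 alone 17 and 21. Naive genes outside the score kept a median above 0 in all alternatives (0.05 to 0.35). The median of formative and primed genes was -0.39 after thinning and turned above 0 in 6 alternatives, among them batch 1 alone (0.08). The held-out median turned to -0.12 within batch 2 and lay between 0.15 and 0.45 otherwise; the cause of these moves was not tested. Zc3hav1 kept a ratio of at least 2.02 and Lef1 of at most 0.735 throughout. Leaving out the cell richest in Mdm2, an alternative chosen after seeing the data, moved Mdm2 from -0.82 to -0.26. Each group is the sum of 64 shallow cells, so a gene at the minimum of 100 UMIs has a wide counting interval, and differences under 1.5-fold in such genes were not detectable at this depth.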
